A study of Rattus norvegicus with 49 samples.

Results

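Livers of male Sprague Dawley rats given 60% less powdered feed for 14 days were compared with livers of rats given 30% less for the same time, directly and not through a shared control. The members were the arrays whose titles named 40% food at 14 days (rats 766 to 770) and 70% food at 14 days (rats 761 to 765), 5 arrays each and 10 of the 49 in the series. The rats were 8 to 10 weeks old at the start, every one of the 10 was fasted overnight before necropsy, and the labels name no transgene and no compound. The ration was set from the recent mean intake of the unrestricted rats, so the percentages describe a ration relative to other animals and not to each rat's own appetite. RNA was hybridised to an Affymetrix rat genome array, 1 array per rat. The other arrays held rats with 15% less food, unrestricted rats fasted overnight, unrestricted rats not fasted, and all 5 diets at day 4. The labels name the tissue as liver whereas the methods speak of RNA from hepatocytes. Rats were housed in groups or pairs and the labels give no cage, so p-values measure the spread between these rats.

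The liver makes fat when food is plentiful and exports or burns it when food is scarce. Insulin and sugar raise the genes of fatty acid synthesis through the transcription factors SREBP-1c and ChREBP, whereas fasting lowers them and raises the genes that turn amino acids into glucose and urea. Liver tissue also holds stellate cells, which make collagen, and immune cells such as Kupffer cells and lymphocytes. In a tissue sample, fewer cells of a type and less RNA per cell cannot be told apart.

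Levels are log2 of the intensities deposited by the authors, a difference of 1 being a doubling of the measured signal, and each gene is represented by its brightest probe set. A gene was called when limma's adjusted p was under 0.1. Of 14217 genes, 52 were called, which is 0.366% of those tested. With 60% less food 39 of them fell (0.274%) and 13 rose (0.0914%). Under an unadjusted p of 0.05, 1149 genes were lower (8.08%) and 687 were higher (4.83%). The median change of all genes was 0.00 and the median size of a change was 0.083, against 0.549 among the called genes. Every rat with 60% less food lay outside the range of the rats with 30% less food in 50 of the 52 called genes, the exceptions being Parp9 and Daglb. Over all genes the groups did not overlap with 60% less food lower in 278 (1.96%) and higher in 127 (0.893%). The mean with 60% less food was higher in 7093 of all genes (49.9%) and lower in 7115. Counts within each gene list below are to be read beside these shares. The smallest adjusted p was 0.0338, shared by Scd, Paqr9, Cavin3, Dnaaf9, Ppil3 and Znrf1.

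The number of calls depended on single rats and on how the spread was estimated. Of the 52 genes, 52 remained called without rat 769, 48 without rat 763, 25 without rat 767, 21 without rat 766, 8 without rat 770 and 3 without each of rats 761, 764 and 765. Without rat 762 or rat 768 limma called 0 genes, with 1399 and 1563 genes at an unadjusted p under 0.05. A single limma fit of all 49 arrays, which borrows the spread of the other diets, called 490 genes lower (3.45%) and 294 higher (2.07%) and kept 49 of the 52. It lost Lox, Cklf and Cnp. Elsewhere, calls by limma are those of the fit of the compared arrays alone. The lognormal-normal model with modified variance, the kind of model named in the methods, called 124 genes lower (0.872%) and 38 higher (0.267%) and kept all 52. Arrays of both groups were alike in quality. Array medians ran over 6.34 to 6.41 with 60% less food and 6.36 to 6.39 with 30% less food, and the median correlation of a rat with its own group was 0.990 to 0.993 with 60% less food and 0.992 to 0.994 with 30% less food. The 9 measured hepatocyte markers had group means of 13.52 to 14.98, near the top of the scale, and a median change of -0.002, so the arrays carried the transcripts of their labelled tissue.

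**Figure D1:**
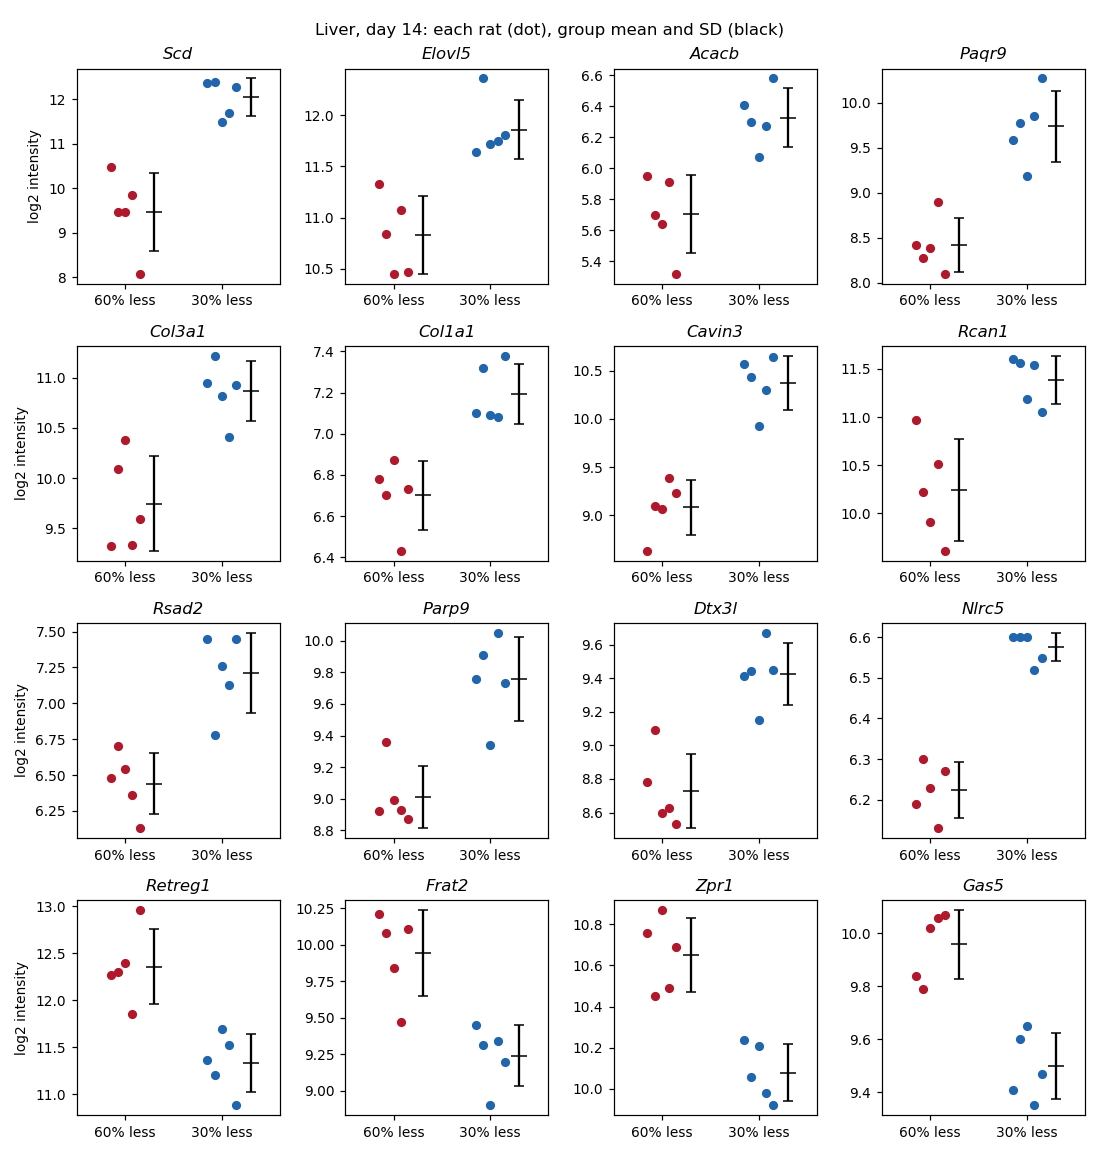
Log2 intensity of 16 called genes in each rat at day 14, with 60% less food on the left and 30% less food on the right of each panel. Each point is 1 rat and the bar beside the points is the mean ± SD (n = 5 each). Except in Parp9, the groups do not overlap, though in Frat2 and Col3a1 the nearest rats of the groups are almost level. The widest gap between means is that of Scd.

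Fatty acid synthesis carried the deepest fall. Scd, which encodes the desaturase that places the first double bond into newly made saturated fatty acids, had log2 intensities of 10.48, 9.48, 9.47, 9.86 and 8.08 with 60% less food, against 12.38, 12.40, 11.50, 11.70 and 12.29 with 30% less food. The highest rat with 60% less food was about 1 unit below the lowest rat with 30% less food. Scd fell by 2.58 on the log2 scale (SE 0.36, adjusted p = 0.0338), to 0.167 times the level with 30% less food, and was called in 5 of the 10 fits that left out 1 rat. The day 14 means of the other diets were 11.49 in fed rats, 8.33 in fasted unrestricted rats and 9.78 with 15% less food. The Scd mean with 60% less food therefore lay close to that with 15% less food, and the 30% group was the highest of the 5.

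Acacb, the carboxylase whose malonyl-CoA restrains the entry of fatty acids into mitochondria, averaged 5.71 ± 0.25 with 60% less food and 6.33 ± 0.19 with 30% less food (SD, n = 5 each), a fall of 0.62 (SE 0.13, adjusted p = 0.0981). Both means were under the dim level of 6.53, a level under which 90% of genes that belong to other tissues lay, so the size of this fall is poorly measured. Acacb was called in 2 of the 10 fits that left out 1 rat. Of the 15 genes of fatty acid synthesis, all 15 had a lower mean with 60% less food, 2 were called (Scd and Acacb), 7 were lower at an unadjusted p under 0.05, and the median change was -0.44. Me1, the malic enzyme that supplies NADPH, averaged 7.16 with 60% less food and 8.40 with 30% less food, a change of -1.24 that just missed the threshold (adjusted p = 0.103). Fasn, fatty acid synthase, averaged 8.97 with 60% less food and 9.71 with 30% less food, and Acly, which makes cytosolic acetyl-CoA from citrate, 10.61 with 60% less food and 11.29 with 30% less food, with adjusted p of 0.216 and 0.171.

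The 1 rat with 30% less food that stood near the other group in these genes was rat 763. Averaged over the 15 genes and set against the mean of the 10 rats, the level was -0.27, -0.32, -0.22, -0.30 and -0.45 with 60% less food, against 0.43, 0.50, -0.21, 0.30 and 0.56 with 30% less food. The groups did not overlap, but rat 763 was only 0.01 above the nearest rat with 60% less food. On the same scale the day 14 means of the other diets were 0.92 in fed rats, -0.49 in fasted unrestricted rats and -0.07 with 15% less food. The list was thus lowest in fasted unrestricted rats, and the level with 60% less food was next.

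Enzymes that lengthen and desaturate fatty acids followed in part. Elovl5, the elongase of polyunsaturated fatty acids, had log2 intensities of 11.33, 10.84, 10.45, 11.07 and 10.47 with 60% less food, against 11.64, 12.36, 11.72, 11.75 and 11.81 with 30% less food. No rats overlapped, and the group with 30% less food was tight except for rat 762. Elovl5 fell by 1.02 (SE 0.18, adjusted p = 0.0783) and its second probe set was lower by 1.09. Unlike Scd, its day 14 means followed the ration among the fasted groups. They were 12.79 in fasted unrestricted rats, 12.20 with 15% less food, 11.86 with 30% and 10.83 with 60%. In fed rats, which were unrestricted but not fasted, the mean was 13.25. Of the 11 genes of this list, 9 had a lower mean and Elovl5 alone was called, 3 were lower at an unadjusted p under 0.05, and the median change was -0.07. Fads2 and Fads1, the desaturases of polyunsaturated fatty acids, had changes of -0.76 (adjusted p = 0.178) and -0.66 (adjusted p = 0.171).

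Paqr9 was among the 10 largest falls and Pnpla7 among the rises. Paqr9, a membrane protein of the adiponectin and progestin receptor family, had 8.42, 8.28, 8.39, 8.90 and 8.10 with 60% less food, against 9.59, 9.77, 9.19, 9.85 and 10.27 with 30% less food. It fell by 1.32 (SE 0.19, adjusted p = 0.0338) and was called in 6 of the 10 fits that left out 1 rat. Pld1, the phospholipase that forms phosphatidic acid, fell by 0.74 on its brightest probe set, but its other 4 probe sets had changes of -0.16 to 0.12 and the mean over all of them was -0.18 (adjusted p = 0.195). Abca3, a lipid transporter, fell by 0.57 and Daglb, a diacylglycerol lipase, by 0.43. Pnpla7, a lysophospholipase of the patatin family, went the other way. Its values were 12.04, 12.05, 12.09, 12.05 and 12.11 with 60% less food, against 11.39, 11.57, 11.88, 11.63 and 11.67 with 30% less food, a rise of 0.44 (SE 0.08, adjusted p = 0.0798). The group with 60% less food spanned less than 0.1 in this gene.

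Neighbouring lipid lists had no called gene by limma. Of 18 genes of lipid droplets and lipases, 14 had a lower mean, 7 were lower and 1 higher at an unadjusted p under 0.05, 6 were lower and 1 higher in the fit of all arrays, and the lognormal-normal model called 0. G0s2, an inhibitor of adipose triglyceride lipase, had 10.38, 10.54, 9.42, 11.89 and 8.24 with 60% less food, against 10.94 to 12.12 with 30% less food (change -1.44, adjusted p = 0.291). Pnpla2, which encodes that lipase, averaged 10.78 with 60% less food and 10.13 with 30% less food (change 0.65, adjusted p = 0.258). Plin2, the droplet coat protein, averaged 10.03 with 60% less food and 11.19 with 30% less food (change -1.17, adjusted p = 0.337). Rat 769 was the highest of its group in both G0s2 and Plin2. Cholesterol synthesis, with 17 genes, had 16 lower means, 1 gene at an unadjusted p under 0.05, and a median of -0.19. The rats were intermixed, the level of that list running over -0.40 to 0.29 with 60% less food, against -0.73 to 0.54 with 30% less food. In the pentose phosphate pathway and the supply of NADPH, 7 of 11 genes had a lower mean, 6 of them at an unadjusted p under 0.05. Pgd, an oxidative enzyme of that pathway, averaged 9.17 with 60% less food and 9.64 with 30% less food, whereas Mthfd1, a folate enzyme, averaged 12.36 with 60% less food and 11.85 with 30% less food without overlap (change 0.51, adjusted p = 0.108).

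**Figure D2:**
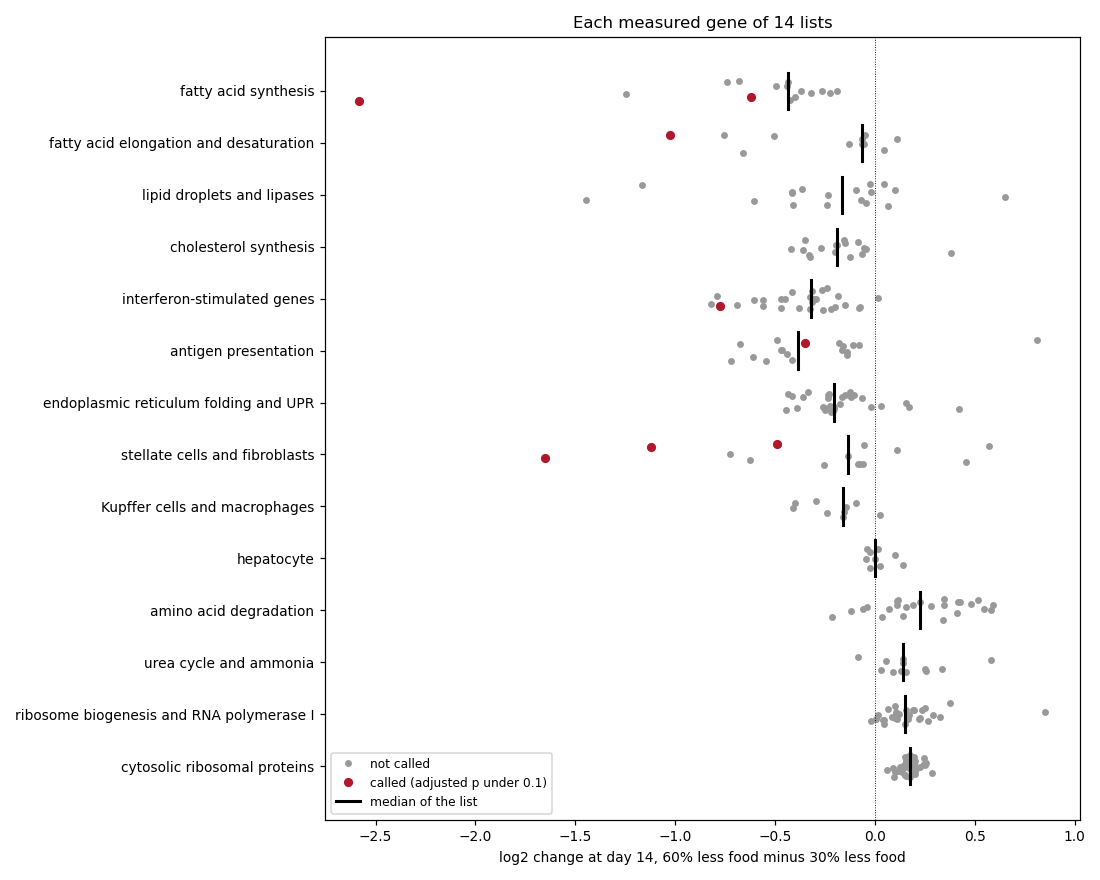
Log2 change of each measured gene of 14 gene lists at day 14, 60% less food minus 30% less food, grey for genes not called and red for called genes, with a bar at the median of each list. The 15 genes of fatty acid synthesis all lie below 0 and the 42 ribosomal protein genes all lie above 0. The 9 hepatocyte markers, near the top of the intensity scale, lie between -0.04 and 0.14 with a median of -0.002.

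Called genes known from connective tissue are given next. Col3a1, the chain of type III collagen, had log2 intensities of 9.33, 10.09, 10.38, 9.34 and 9.59 with 60% less food, against 10.95, 11.22, 10.82, 10.41 and 10.93 with 30% less food. The nearest rats of the groups were 0.03 apart. Col3a1 fell by 1.12 (SE 0.21, adjusted p = 0.0798). Col1a1, a chain of type I collagen, averaged 6.70 ± 0.17 with 60% less food and 7.19 ± 0.15 with 30% less food (SD, n = 5 each), a fall of 0.49 (SE 0.10, adjusted p = 0.0865), and its second probe set was lower by 1.26. Of the 10 fits that left out 1 rat, Col3a1 was called in 3 and Col1a1 in 2.

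Lox, the oxidase that cross-links collagen and elastin, had 5.09, 4.64, 5.32, 5.64 and 5.91 with 60% less food, against 7.88, 7.50, 6.09, 6.39 and 7.0 with 30% less food. It fell by 1.65 (SE 0.33, adjusted p = 0.0977), but all 5 rats with 60% less food were under the dim level. Counted only to that level its change was -0.44, and its second probe set was lower by 0.79. Lox was called in 2 of the 10 fits that left out 1 rat. Among the fasted groups the day 14 means of Lox were higher with each larger ration. They were 9.52 in fasted unrestricted rats, 8.71 with 15% less food, 6.97 with 30% and 5.32 with 60%. In fed rats, which were unrestricted but not fasted, the mean was 10.25. Mmp19, a matrix metalloproteinase, averaged 7.26 with 60% less food and 7.76 with 30% less food and fell by 0.50.

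In the list of stellate cells and fibroblasts, 12 of 15 genes had a lower mean, 3 were called (Lox, Col3a1 and Col1a1), and the median change was -0.14. At an unadjusted p under 0.05, 5 were lower and 1 was higher, and the changes ran from -1.65 to 0.57. The fit of all arrays called 3 lower and 1 higher, but Lox was not among them (adjusted p = 0.111). The lognormal-normal model called Lox, Col3a1 and Col1a1 lower and 1 gene higher. Col1a2 averaged 8.26 with 60% less food and 8.98 with 30% less food (change -0.73, adjusted p = 0.175), and 2 genes of the list were dim in both groups. The level of the whole list ran over -0.37 to 0.11 with 60% less food, against -0.06 to 0.34 with 30% less food, and the part of cell number in these falls was not tested.

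Cavin3 and Rcan1 belonged to no list of lipid or matrix genes. Cavin3, a coat protein of caveolae, had 8.63, 9.10, 9.07, 9.39 and 9.23 with 60% less food, against 10.57, 10.44, 9.93, 10.30 and 10.64 with 30% less food. It fell by 1.29 (SE 0.16, adjusted p = 0.0338) and was called in 8 of the 10 fits that left out 1 rat. The day 14 means with 15% less food (10.39) and in fasted unrestricted rats (10.59) stood near that with 30% less food (10.38), so the rats with 60% less food stood apart from the other 3 fasted groups. Rcan1, an inhibitor of calcineurin, averaged 10.24 ± 0.53 with 60% less food and 11.39 ± 0.25 with 30% less food (SD, n = 5 each) and fell by 1.14 (SE 0.22, adjusted p = 0.0864).

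Klhl25 and Entpd5 were among the 10 largest falls. Klhl25, an adaptor of a ubiquitin ligase, had 7.82, 8.52, 8.38, 8.58 and 8.68 with 60% less food, against 9.40, 9.50, 9.43, 9.71 and 9.05 with 30% less food, a fall of 1.02 (SE 0.16, adjusted p = 0.0745). Entpd5, a nucleoside diphosphatase of the endoplasmic reticulum that aids the folding of glycoproteins, had 9.40, 9.51, 9.24, 9.58 and 8.53 with 60% less food, against 10.57, 10.22, 9.84, 10.35 and 10.14 with 30% less food. Entpd5 fell by 0.97 (SE 0.19, adjusted p = 0.0935), and its probe sets ranged from -0.98 to -0.91. Ergic1, which cycles between the reticulum and the Golgi apparatus, fell by 0.32. Siae and Prcp, lysosomal hydrolases, fell by 0.45 and 0.32, and Znrf1, a ubiquitin ligase, by 0.46. The mean over the probe sets of Znrf1 was -0.28 (adjusted p = 0.137).

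Retreg1 was the largest rise among the called genes. It encodes a receptor that delivers sheets of endoplasmic reticulum to autophagy, and had log2 intensities of 12.27, 12.30, 12.40, 11.85 and 12.96 with 60% less food, against 11.36, 11.20, 11.69, 11.52 and 10.88 with 30% less food. Every rat with 60% less food was above every rat with 30% less food, the nearest being 0.16 apart. Retreg1 rose by 1.03 (SE 0.19, adjusted p = 0.0798) and was called in 2 of the 10 fits that left out 1 rat. Its day 14 means were 9.94 in fed rats, 10.96 in fasted unrestricted rats, 11.13 with 15% less food, 11.33 with 30% and 12.36 with 60%.

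Genes of folding in the endoplasmic reticulum and of the unfolded protein response were on the low side without a call. Of 32 measured, 28 had a lower mean, 16 were lower and 0 higher at an unadjusted p under 0.05, limma called 0, the fit of all arrays 8 and the lognormal-normal model 1, all lower. The median change was -0.21. Sdf2l1, a partner of the chaperone BiP, averaged 10.01 with 60% less food and 10.46 with 30% less food, and Hyou1, its nucleotide exchange factor, 9.54 with 60% less food and 9.97 with 30% less food. Creld2 averaged 9.23 with 60% less food and 9.65 with 30% less food without overlap (change -0.42, adjusted p = 0.151). Edem1, which sends misfolded glycoproteins to degradation, averaged 12.48 with 60% less food and 12.06 with 30% less food, with overlapping rats (change 0.42, adjusted p = 0.480).

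Rsad2, Parp9 and Dtx3l, all known from interferon responses, were called, Rsad2 as a member of the list of interferon-stimulated genes. Interferon signalling ends at STAT and IRF transcription factors, and IRF complexes bind the interferon-stimulated response element in the promoters of such genes. Rsad2, an antiviral enzyme, had log2 intensities of 6.48, 6.70, 6.54, 6.36 and 6.13 with 60% less food, against 7.45, 6.78, 7.26, 7.13 and 7.45 with 30% less food. It fell by 0.77 (SE 0.14, adjusted p = 0.0783) to a mean under the dim level, and by that level its change was -0.69. Parp9 and Dtx3l encode partner proteins that add ADP-ribose and ubiquitin at sites of DNA damage and in interferon signalling.

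Parp9 had 8.92, 9.36, 8.99, 8.93 and 8.87 with 60% less food, against 9.76, 9.91, 9.34, 10.05 and 9.73 with 30% less food. Only rat 767, with 60% less food, was above rat 763, with 30% less food. Parp9 fell by 0.74 (SE 0.13, adjusted p = 0.0783). Dtx3l had 8.78, 9.09, 8.60, 8.63 and 8.53 with 60% less food, against 9.41, 9.44, 9.15, 9.67 and 9.45 with 30% less food, and fell by 0.70 (SE 0.12, adjusted p = 0.0783). Here rats 767 and 763 were again the nearest pair, and they did not overlap. Nlrc5, the activator of class I antigen presentation genes, averaged 6.22 ± 0.07 with 60% less food and 6.58 ± 0.03 with 30% less food (SD, n = 5 each), a fall of 0.35 (SE 0.06, adjusted p = 0.0783). The lower mean was under the dim level of 6.53 and the higher mean just above it, so most of this fall lay under that level.

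The promoters of Rsad2 and Dtx3l are shown because they were the only 2 of the 31 falling genes matched to a promoter whose window held the core of the interferon-stimulated response element, searched on both strands as GAAA, 2 bases of any kind and GAAA. Each window is from RefSeq on GRCr8, holds 250 bases before the start of the gene and 50 after, and is written 5′ to 3′ along the gene's strand, with the match in capitals. The Rsad2 window is chr6:48788071-48788370 on the minus strand, with the match 147 bases before the start, and the Dtx3l window is chr11:78319975-78320274 on the plus strand, with the match 10 bases after the start.
Rsad2: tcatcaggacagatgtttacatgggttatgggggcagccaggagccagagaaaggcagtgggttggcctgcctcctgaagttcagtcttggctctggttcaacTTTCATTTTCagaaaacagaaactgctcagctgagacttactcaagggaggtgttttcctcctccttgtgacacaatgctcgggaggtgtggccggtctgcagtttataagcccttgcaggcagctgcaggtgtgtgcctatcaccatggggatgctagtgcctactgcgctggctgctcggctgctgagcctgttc
Dtx3l: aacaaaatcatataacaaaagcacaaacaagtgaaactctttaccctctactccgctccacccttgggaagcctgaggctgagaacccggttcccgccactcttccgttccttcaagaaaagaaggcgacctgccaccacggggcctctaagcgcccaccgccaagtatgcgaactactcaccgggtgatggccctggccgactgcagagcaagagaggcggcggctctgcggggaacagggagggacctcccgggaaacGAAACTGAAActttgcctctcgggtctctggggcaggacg
The motif stood in 3.77% of the 27457 promoters, in 14 of 21 interferon-stimulated genes and 7 of 15 antigen presentation genes matched, and in 0 of the 13 rising genes. The E-box CACGTG, in 6.65% of all promoters, stood in 4 of the 31 falling and 3 of the 13 rising genes. The cyclic AMP response element TGACGTCA, in 1.91% of all promoters, stood in Elovl5 and Rcan1 among the falling genes and in Gas5 and Retreg1 among the rising ones. The STAT element TTCNNNGAA, in 8.68% of all promoters, stood in Cyp2t1 among the falling genes, in 0 of the 13 rising genes, in 9 of 21 interferon-stimulated genes and in 1 of 15 antigen presentation genes. No called gene had TTACGTAA, TTATGTAA, TGACGTAA, TTGCATCA, TCACCCCAC, TCACNCCAC or the glucocorticoid response element, all searched on both strands and found in 0.127%, 0.881%, 0.889%, 0.743%, 0.495%, 1.13% and 0.00728% of all promoters. The interferon motif was added after the values were seen, and a match is a description of letters, not of binding.

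Of 28 measured interferon-stimulated genes, 27 had a lower mean with 60% less food, Rsad2 was called, 11 were lower and 0 higher at an unadjusted p under 0.05, and the median change was -0.32. Rig1, a sensor of viral RNA, had a change of -0.69 (adjusted p = 0.144), Igtp, an interferon-induced GTPase, one of -0.79 (adjusted p = 0.281) and Cxcl9, a chemokine, one of -0.82 (adjusted p = 0.477). Their groups overlapped. The level of the list ran over -0.37 to 0.16 with 60% less food, against -0.02 to 0.40 with 30% less food. Rat 767 was the highest of its group and stood above rats 761 and 762 with 30% less food.

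Of 18 antigen presentation genes, 17 had a lower mean, Nlrc5 was called, 10 were lower and 0 higher at an unadjusted p under 0.05, and the median change was -0.38. Psmb8, an immunoproteasome subunit, averaged 9.98 with 60% less food and 10.70 with 30% less food (change -0.72, adjusted p = 0.144). Tap1, the peptide transporter, had 7.52, 7.66, 7.55, 7.19 and 7.34 with 60% less food, against 8.06, 8.10, 7.89, 7.68 and 7.85 with 30% less food, without overlap (change -0.47, adjusted p = 0.137). RT1-Db1 and RT1-Ba, class II chains, had changes of -0.67 (adjusted p = 0.387) and -0.61 (adjusted p = 0.345). RT1-Bb was the exception with a change of 0.81 (SE 0.93). It had 9.18, 8.68, 5.43, 8.50 and 8.44 with 60% less food, against 5.64, 6.04, 5.61, 9.04 and 9.84 with 30% less food, so rats of both groups were either near 5.6 or above 8.4.

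Markers of immune cells were on the low side as well. Of 9 Kupffer cell and macrophage markers, 8 had a lower mean and 2 were lower at an unadjusted p under 0.05, the median change was -0.16, and the level ran over -0.39 to 0.10 with 60% less food, against -0.15 to 0.27 with 30% less food. None was dim, and Clec4f, the Kupffer cell lectin, averaged 11.30 with 60% less food and 11.71 with 30% less food (change -0.41, adjusted p = 0.151). Of 14 markers of T and NK cells, 10 had a lower mean and 9 were dim in both groups, with levels over -0.13 to 0.01 with 60% less food and -0.03 to 0.14 with 30% less food. Fgr, a kinase of myeloid cells, was called with a fall of 0.52, of which only 0.04 lay above the dim level. Among 4 erythroid genes, 2 kept the groups apart without a call. Hbb, a globin, had 11.32, 10.41, 11.63, 11.68 and 10.04 with 60% less food, against 13.16, 12.07, 11.79, 12.26 and 12.30 with 30% less food (change -1.30, adjusted p = 0.151), and Alas2, the heme enzyme of erythroid cells, averaged 6.17 with 60% less food and 7.19 with 30% less food (change -1.02, adjusted p = 0.145), both without overlap. Epb42 and Slc4a1, of the red cell membrane, had changes of 0.09 and 0.00. The part of these cells in the falls was not tested.

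Ribosomal protein genes were the most uniform group on the high side. All 42 that were measured, of 78 in the list, had a higher mean with 60% less food, between 0.06 and 0.28, with a median of 0.18. Limma called 0 of them and the lognormal-normal model 0. At an unadjusted p under 0.05, 33 were higher, where the share over all genes was 4.83%. The fit of all arrays called 33 higher (2.07% over all genes), and 20 did not overlap (0.893% over all genes). Rpl12, a protein of the large subunit, had 12.92, 12.79, 13.03, 12.85 and 12.96 with 60% less food, against 12.64, 12.67, 12.72, 12.50 and 12.59 with 30% less food (change 0.28, SE 0.07, adjusted p = 0.145). Rpl3, which helps to form the peptidyl transferase centre, averaged 13.27 with 60% less food and 13.02 with 30% less food without overlap (change 0.25, adjusted p = 0.189).

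Averaged over the list, the level was 0.10, 0.02, 0.19, 0.06 and 0.06 with 60% less food, against -0.10, -0.05, -0.02, -0.15 and -0.12 with 30% less food. The groups did not overlap, and the day 14 means of -0.13 with 15% less food, -0.15 in fasted unrestricted rats and -0.18 in fed rats lay below that of -0.09 with 30% less food. Ribosomal protein genes have many processed copies in the rat genome, so probe sets can read more than 1 locus.

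Gas5 and Zpr1 were among the 10 largest rises. Gas5, a noncoding RNA that hosts small nucleolar RNAs and starts with the same sequence type as ribosomal protein messages, had 9.84, 9.79, 10.02, 10.06 and 10.07 with 60% less food, against 9.41, 9.60, 9.65, 9.35 and 9.47 with 30% less food. It rose by 0.46 (SE 0.08, adjusted p = 0.0783), and its second probe set was higher by 0.12, the mean of both being 0.29 (adjusted p = 0.165). Zpr1, a zinc finger protein that binds the elongation factor eEF1A, had 10.76, 10.45, 10.87, 10.49 and 10.69 with 60% less food, against 10.24, 10.06, 10.21, 9.98 and 9.92 with 30% less food, and rose by 0.57 (SE 0.10, adjusted p = 0.0783). In both genes the lowest rat with 60% less food was above the highest with 30% less food. Of 29 genes of ribosome biogenesis, 28 had a higher mean, 5 were higher at an unadjusted p under 0.05, limma and the lognormal-normal model called 0, the fit of all arrays called 2 higher, and the median change was 0.15. The groups overlapped in the level of that list, over -0.08 to 0.33 with 60% less food and -0.26 to 0.03 with 30% less food. Myc, a transcription factor that drives this programme, had 10.03, 7.73, 9.49, 8.34 and 9.97 with 60% less food, against 7.77, 8.29, 8.51, 8.69 and 8.03 with 30% less food (change 0.85, adjusted p = 0.403), the first group being split.

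The remaining rises formed no single pathway. Frat2, a protein that binds glycogen synthase kinase, had 10.21, 10.08, 9.84, 9.47 and 10.11 with 60% less food, against 9.45, 9.31, 8.90, 9.34 and 9.20 with 30% less food, and rose by 0.70 (SE 0.14, adjusted p = 0.0981). Only 0.02 separated rats 769 and 761, and Frat2 was called in 1 of the 10 fits that left out 1 rat. Mtmr11, of the myotubularin family, rose by 0.83 (adjusted p = 0.0783) with both means dim. LOC102549726, a long noncoding RNA, and Syncrip-ps2, named as a pseudogene of Syncrip and so open to signal from its parent, rose by 0.66 and 0.56. Tp53i13, Bloc1s2, Cblb, Erf and Mms19 rose by 0.51, 0.49, 0.45, 0.40 and 0.38. Cblb is a ubiquitin ligase that restrains receptor signalling, Erf a transcriptional repressor, and Mms19 a carrier of iron-sulfur clusters.

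The remaining falls were spread over many functions and are named here after their values were seen. Rhof, a small GTPase, fell by 0.97, Dnaaf9, an assembly factor of axonemal dynein, by 0.79, Sh3gl3, an endophilin, by 0.69, and Tent5a, a poly(A) polymerase, by 0.66. Rhof was called in 1 of the 10 fits that left out 1 rat. Dnaaf9 had 7.17, 7.35, 7.02, 7.34 and 6.93 with 60% less food, against 7.75, 8.11, 8.10, 7.74 and 8.06 with 30% less food, and was called in 7 of the 10 fits that left out 1 rat. Its second, dimmer probe set had a change of -0.10, and the mean of both was -0.45 (adjusted p = 0.111). The mean over probe sets was -0.37 for Tent5a (adjusted p = 0.161). Of the 21 called genes with more than 1 probe set, all probe sets lay in 1 direction in 20, Pld1 being the exception. Cyp2t1, the only called gene of 37 cytochrome P450 genes and their regulators, fell by 0.57. Cadm1, a cell adhesion molecule, and Rab32, a GTPase of organelle traffic, each fell by 0.54. Anxa7, an annexin, fell by 0.52 and Ppil3, a prolyl isomerase, by 0.47. Tubb4b, a beta tubulin, fell by 0.44, Crybg2 by 0.41, Plekha8, a carrier of glycosphingolipid precursors, by 0.35, Cnp, a phosphodiesterase known from myelin, by 0.34, Lmnb2, a nuclear lamin, by 0.34 with both means dim, and Cklf, a chemokine-like factor, by 0.33. Cnp was called in 1 of the 10 fits that left out 1 rat and not in the fit of all arrays (adjusted p = 0.17).

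Genes that turn amino acids into glucose and urea were mostly higher without a call. Of 25 genes of amino acid degradation, 21 had a higher mean, 9 were higher and 1 lower at an unadjusted p under 0.05, limma and the lognormal-normal model called 0, the fit of all arrays called 5 higher, and the median change was 0.22. Got1, a transaminase, had 13.89, 14.15, 13.88, 13.52 and 14.22 with 60% less food, against 13.45, 12.63, 13.77, 13.77 and 13.08 with 30% less food (change 0.59, adjusted p = 0.266). Of 12 urea cycle genes, 11 had a higher mean and 5 were higher at an unadjusted p under 0.05, with a median of 0.14. Asl, the argininosuccinate lyase, averaged 13.37 with 60% less food and 12.79 with 30% less food (change 0.58, adjusted p = 0.150).

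In gluconeogenesis 11 of 17 genes had a higher mean, 3 were higher and 2 lower at an unadjusted p under 0.05, and the median was 0.08. Ppargc1a, the coactivator that fasting raises, had 8.99, 9.84, 9.23, 8.35 and 10.21 with 60% less food, against 7.87, 7.89, 8.43, 9.29 and 8.22 with 30% less food (change 0.98, adjusted p = 0.258), rats 763 and 764 of the second group reaching into the first. Gpd1, which links glycerol to glycolysis, averaged 11.16 with 60% less food and 11.75 with 30% less food without overlap (change -0.60, adjusted p = 0.143). Among 25 genes of insulin signalling and the FoxO response, Igfbp1 averaged 12.94 with 60% less food and 12.04 with 30% less food (change 0.90, adjusted p = 0.256) and Irs2, an insulin receptor substrate, 9.79 with 60% less food and 9.13 with 30% less food (change 0.66, adjusted p = 0.236). That list had 14 higher means, 5 genes higher and 1 lower at an unadjusted p under 0.05, and a median of 0.07.

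Lists of targets of single regulators differed in direction, and limma called 0 genes in each of those given here. Of 22 glucocorticoid receptor targets, 17 had a higher mean, 4 were higher at an unadjusted p under 0.05, and the median change was 0.08. Of 32 antioxidant and NRF2 targets, 24 had a lower mean, 9 were lower at an unadjusted p under 0.05, and the median was -0.10. Akr7a3, an aldehyde reductase, averaged 10.14 with 60% less food and 11.01 with 30% less food (change -0.88, adjusted p = 0.148), and Ephx1, the microsomal epoxide hydrolase, 12.12 with 60% less food and 12.78 with 30% less food (change -0.65, adjusted p = 0.189). Of 17 PPAR-alpha targets, 12 had a lower mean, 4 were lower at an unadjusted p under 0.05, and the median was -0.15. Cd36, a fatty acid carrier, averaged 8.20 with 60% less food and 9.05 with 30% less food (change -0.85, adjusted p = 0.259).

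Of 27 genes named in the study's paper, 21 were measured and limma called 0. Of the measured genes 13 had a lower mean and 8 a higher mean, with a median change of -0.03. At an unadjusted p under 0.05, 4 were lower and 0 higher, and the fit of all arrays called 3, all lower. Genes entered this list from the paper, parts of which rest on these arrays, so it is no independent evidence. Pklr, the liver form of pyruvate kinase, had 10.01, 10.12, 10.06, 10.29 and 9.36 with 60% less food, against 11.15, 11.51, 10.11, 10.75 and 10.84 with 30% less food (change -0.90, adjusted p = 0.151). Rat 763 again stood with the first group. Pgm1, which interconverts glucose phosphates, averaged 11.39 with 60% less food and 11.62 with 30% less food without overlap (change -0.23, adjusted p = 0.216), and Gulo, which completes vitamin C synthesis, 11.80 with 60% less food and 12.11 with 30% less food (change -0.31, adjusted p = 0.383).

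**Figure D3:**
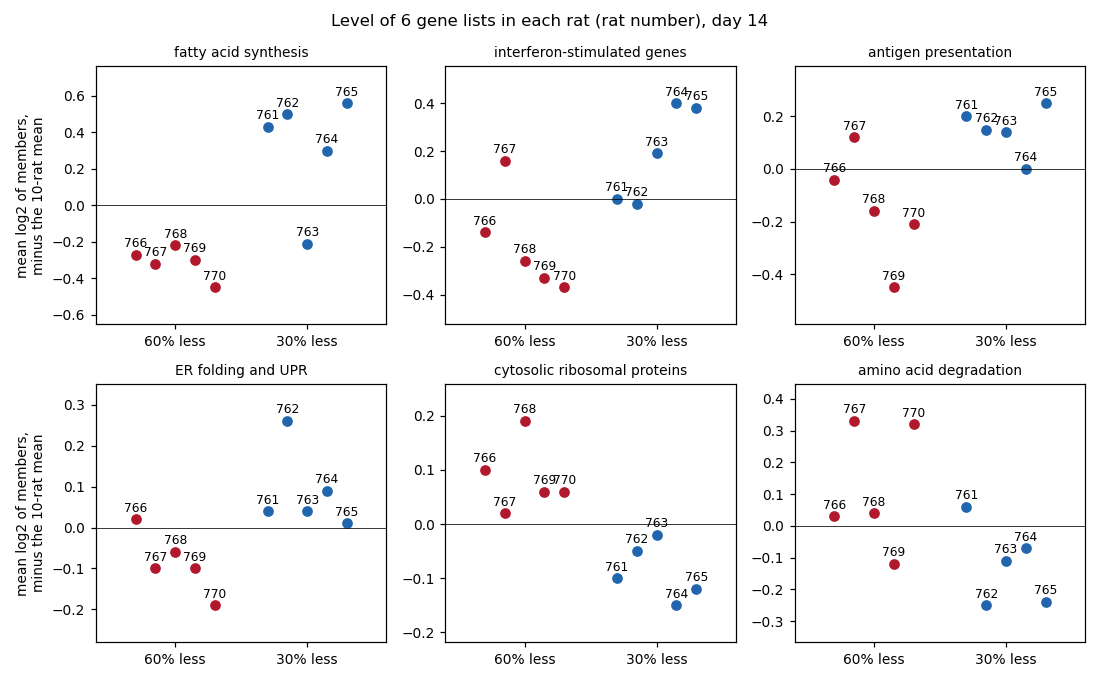
Level of 6 gene lists in each rat at day 14, as the mean log2 intensity of the members minus its mean over the 10 rats, with 60% less food on the left and 30% less food on the right. Points carry rat numbers. The groups lie apart in fatty acid synthesis, where rat 763 is the lowest of its group, and in ribosomal proteins, and overlap in the other 4 lists.

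The same diets were measured at day 4 in other rats, 5 per diet. There limma called 2 genes, both lower (0.0141%), with 1053 genes at an unadjusted p under 0.05. Ier3, an immediate early gene, averaged 9.97 with 60% less food and 10.83 with 30% less food and fell by 0.86 (SE 0.10, adjusted p = 0.012), and Abhd6, a monoacylglycerol lipase, averaged 8.41 with 60% less food and 8.90 with 30% less food and fell by 0.49 (SE 0.05, adjusted p = 0.0106). At day 14 their changes were 0.20 and -0.16. The 2 days shared the sign of the change in 58.1% of all genes and in 65.4% of those at an unadjusted p under 0.05 at day 14.

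Of the 39 falling genes, 29 had a lower mean at day 4 as well, 6 of them at an unadjusted p under 0.05, with a median change of -0.09 at day 4 and -0.57 at day 14. Of the 13 rising genes, 2 had a higher mean at day 4 (Retreg1 and Zpr1), and the median was -0.10 at day 4 and 0.51 at day 14. Lox differed by -1.38 at day 4 and -1.65 at day 14, Elovl5 by -0.56 and -1.02, and Cavin3 by -0.51 and -1.29. The day 4 change of Lox did not reach an unadjusted p of 0.05. Scd differed by 0.25 and -2.58, and Frat2 by -0.39 and 0.70. The change between the days was itself tested over the 20 rats. Limma called 0 genes for it, with 1072 genes (7.54%) at an unadjusted p under 0.05, among them all 13 rising and 28 of the 39 falling genes. The called genes were chosen by the day 14 difference, which is a term of this test, so these counts follow in part from the choice. A difference between days was not established for any 1 gene after adjustment.

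For the lists the medians of the 2 days stand side by side. Fatty acid synthesis had a median change of 0.22 at day 4, with 13 of 15 genes higher, against -0.44 at day 14. Genes of folding in the endoplasmic reticulum had a median of 0.14 at day 4, with 29 of 32 higher, against -0.21 at day 14. Antigen presentation genes were lower at both days, with medians of -0.21 and -0.38 and all 18 lower at day 4. Ribosome biogenesis was higher at both, with medians of 0.14 and 0.15. Ribosomal protein genes had medians of 0.04 and 0.18. The differences between days were not tested for the lists.

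**Figure D4:**
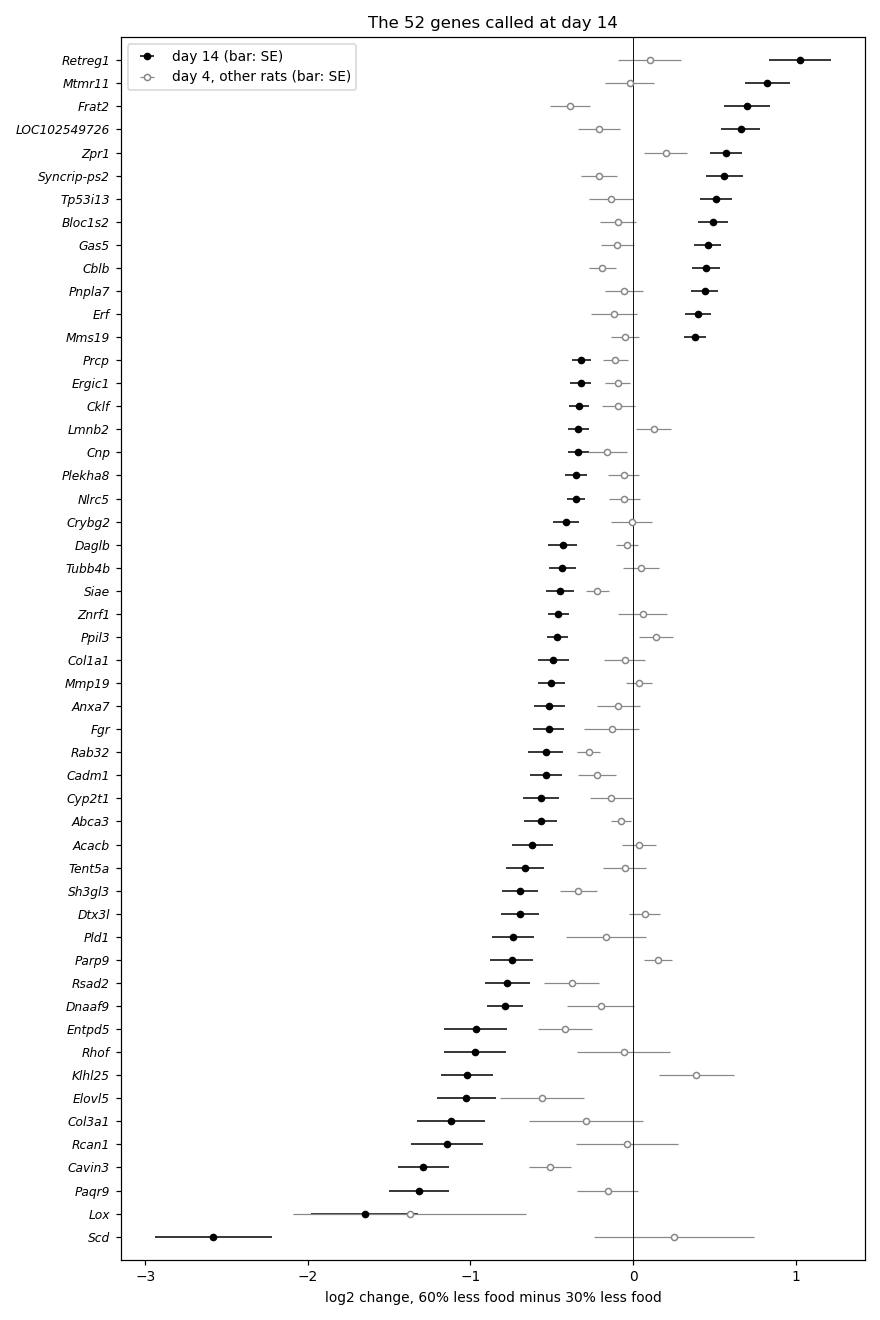
Log2 change of the 52 called genes, 60% less food minus 30% less food, at day 14 (filled) and at day 4 in other rats (open), with bars for the standard error. Most filled points lie farther from 0 than the open point of the same gene, Lox and Elovl5 being among those that moved the same way at both days.

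Set among all diets at day 14, the mean with 60% less food lay beyond those with 30% less food, 15% less food and overnight fasting alone in 37 of the 39 falling genes and in all 13 rising genes. The exceptions were Scd and Acacb. The 4 fasted groups followed the ration in full order in 14 of the falling and 6 of the rising genes. These counts lean on the 60% group that the call itself used, and they describe where the other means stood.

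**Figure D5:**
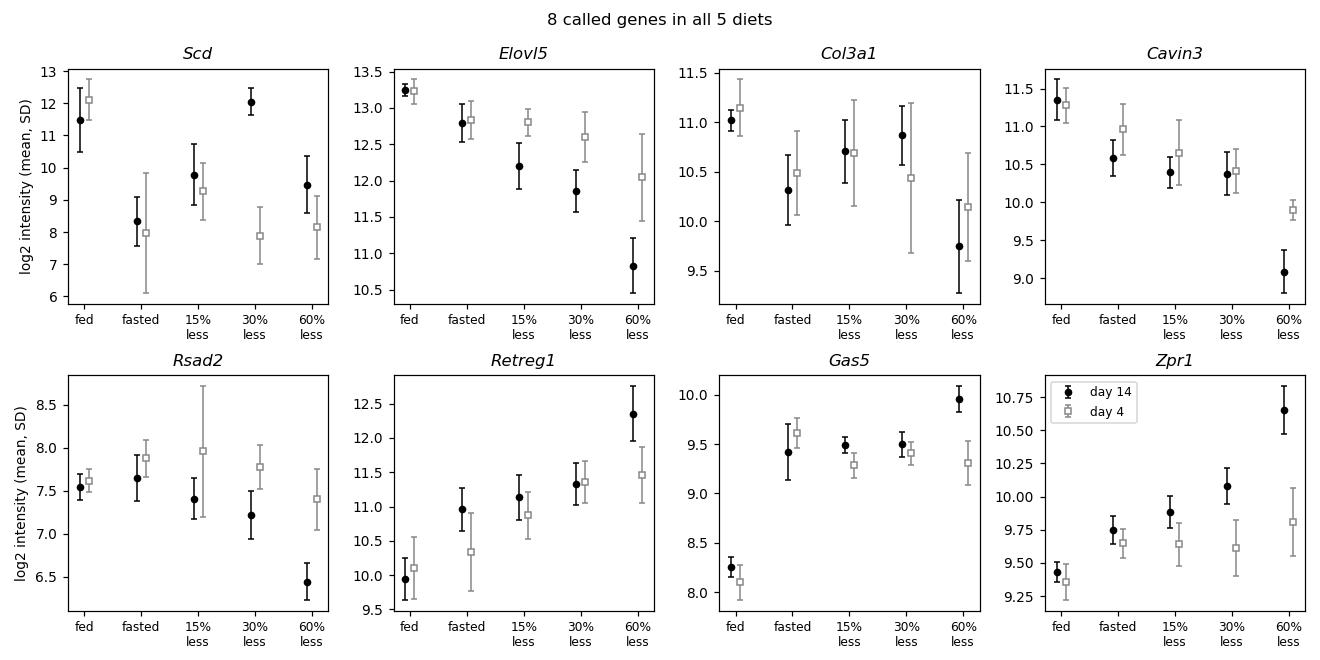
Mean ± SD of the log2 intensity of 8 called genes in the 5 diets, from fed rats to 60% less food, at day 14 (filled circles) and day 4 (open squares). Fed rats at day 14 were 4 and every other group 5. Among the 4 fasted groups at day 14 the means of Elovl5 are lower and those of Retreg1 higher with each step down in ration. Fed rats differ from fasted unrestricted rats by the fast and not by ration. Scd is high in fed rats and with 30% less food and lower in the other 3 groups.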

How the data were processed

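The authors extracted liver RNA, hybridised it to Affymetrix rat genome arrays, checked scans in Affymetrix Expression Console and normalised them by RMA in affy 1.38.1 under R 3.0.1. The deposited table holds the resulting intensity of 31042 probe sets on a linear scale, in whole numbers from 8 to 33095, which leaves steps of 0.17 on the log2 scale at the lowest values. The array platform's annotation gave 1 gene symbol to 20826 probe sets, several to 436 and none to 9780. Values were taken to log2, and each of 14217 genes took the values of its brightest probe set by the mean of 49 arrays. Each comparison was fitted with limma 3.58.1 (lmFit, eBayes, R 4.3.3) on its own 10 arrays, with no covariate, and p-values were adjusted by Benjamini-Hochberg over all genes. Groups came from the sample titles, and the labels name no batch. The day in the titles is the length of the diet. No array pair was identical. Array number limits the precision. Alternatives changed the threshold, the filter on dim genes, the probe set, the normalisation, the weights, the model and the rats used. The lognormal-normal model was written anew from its description. Fits were tested on simulated data.

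The comparison, the gene lists and the rules were chosen with earlier results of these data known. Genes were named as the 10 largest rises and falls among called genes without overlap, up to 4 members of each list by size of change and those called at day 4. Genes of the study's own list were also to be named, but only some of them are given here. The remaining called genes were named after their values were seen.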

Additional observations from a re-analysis of the deposited data

Results flagged for a closer look

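Single rats that stood far from the 4 others of their group were looked for in 302 groups of 5, of which 9 were far by Dixon's criterion, whereas chance gives about 1 in 20. Rat 769, with 60% less food, was alone at 11.84 in Plin2 (9.39 to 9.82 in the others), at 7.44 in Fgf21 (5.61 to 6.13) and at 9.45 in Abhd6 (8.50 to 8.73). In the same diet, rat 768 was at 5.43 in RT1-Bb (8.44 to 9.18), rat 770 at 8.02 in Mgll (8.90 to 9.22) and rat 767 at 9.36 in Parp9 (8.87 to 8.99). With 30% less food, rat 762 was at 12.36 in Elovl5 (11.64 to 11.81), and rat 763 was at 8.13 in Sh3gl3 (8.38 to 8.47) and at -0.05 in the level of antioxidant and NRF2 targets (0.09 to 0.13).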

How the results depend on the processing

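At day 14 the count of called genes was 52. It was 6 at an adjusted p under 0.05, 22 with a fold of at least 1.5, 784 in 1 fit of all arrays, 29 with the mean of a gene's probe sets, 211 with array weights and 162 by the lognormal-normal model, and ran over 0 to 302 when 1 rat was left out. At day 4 the count of 2 became 1 with the fold, 0 in the fit of all arrays, 1 with the mean of probe sets and 13 by the lognormal-normal model, and 2 to 3 without 1 rat. The difference between the days, 0 by limma, gave 32 genes in the fit of all arrays, 2 with array weights and 0 to 17 without 1 rat. Fewer arrays or genes enter several of these fits, and other causes were not tested. Of 2064 values of 129 named genes under alternatives, 1574 kept direction and side of the threshold, 403 kept direction but were no longer called, 82 became called and 5 turned sign. These were RT1-Bb (-0.31) and Slc4a1 (-0.16) with the mean of probe sets, and Slc4a1 without rat 763, 768 or 769, its range without 1 rat being -0.068 to 0.048. The medians of 66 lists, examined after seeing the data, moved by less than the spread between rats in 1052 of 1056 values. That spread was larger than the median itself in some lists, such as cholesterol synthesis, and smaller in others, such as ribosomal proteins. Where it was larger, a median could vanish or change sign and still count as unmoved. The count therefore does not show that the medians were stable. Values under the dim level bound a change only from 1 side.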

Other observations

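Some of the widest differences between the diets were in genes whose rats varied too much for a call. Igfbp2, a binding protein of insulin-like growth factors, had 11.22, 10.74, 13.11, 10.47 and 11.52 with 60% less food, against 9.13, 10.59, 11.07, 9.11 and 8.97 with 30% less food (change 1.64, adjusted p = 0.222). Slc22a8, an organic anion transporter, had 10.22, 8.63, 7.28, 7.91 and 6.93 with 60% less food, against 10.70, 9.71, 11.05, 9.38 and 8.88 with 30% less food (change -1.75, adjusted p = 0.238). Inhbe, which encodes the hepatokine activin E, had 7.73, 8.37, 6.82, 9.86 and 7.04 with 60% less food, against 9.35, 9.45, 9.58, 10.10 and 10.01 with 30% less food (change -1.73, adjusted p = 0.169). Only rat 769 reached the second group. Ccnd1, cyclin D1, averaged 8.56 with 60% less food and 9.77 with 30% less food (change -1.21, adjusted p = 0.103), and at day 4 its change was -1.01. These genes lead their lists by size of change.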
